A study of Mus musculus with 4 samples.

Results

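At day 13 of a mouse lung organoid culture, 70 of 9311 kept cell barcodes carried a squamous keratinocyte programme led by Krt13 and Krtdap. These squamous cells were chosen by a rule on measured values. A barcode had to hold at least 500 genes and at most 15% mitochondrial UMIs (unique molecular identifiers, the counted molecules), and Krt13 and Krtdap together had to make up at least 0.5% of its UMIs. The 70 cells were 0.752% of the day 13 barcodes (95% exact binomial interval 0.587% to 0.949%) and came from 33732 kept barcodes over the whole series. No barcode of day 0, 8 or 20 met the rule among 7350, 7893 and 9178 kept barcodes. The exact intervals allow shares of up to 0.0502%, 0.0467% and 0.0402%. Because Krt13 and Krtdap chose the cells, their levels are given as a description, and so is every contrast with other day 13 barcodes.

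The series holds 1 library per day, from Gramd2creERT2;mTmG mice. GFP+ lung cells were sorted for the day 0 library, and the same kind of cells was grown with 100000 fibroblasts of the MLg mouse lung line in growth factor-reduced Matrigel, in DMEM/F-12 with 10% FBS and SB 431542 (an inhibitor of the TGF-beta type I receptor), for the libraries of days 8, 13 and 20. EpCAM bead enrichment preceded the organoid libraries, which were made with 10x Genomics Chromium chemistry that counts the 3' ends of transcripts. The labels name alveolar epithelial cells as the cell type, and they call the molecule nuclear RNA while naming the library source single cell. In the mTmG allele a cell makes membrane tdTomato until Cre recombinase removes that cassette, after which it and its descendants make membrane EGFP, and Cre activated by tamoxifen is here driven from Gramd2, a gene of alveolar type I cells. With 1 library per day there was no replicate, so no test was made and every interval covers counting error only.

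The libraries of days 0, 8, 13 and 20 held 31850454, 154258012, 120905926 and 149916314 UMIs, and the median per kept barcode was 2558.5, 17075, 9527 and 12791. The 70 squamous cells together held 1432199 UMIs, with 812, 16439 and 70637 UMIs in the lowest, the median and the highest cell. Pairs of libraries shared 25 to 41 barcode sequences, and none of the 70 was among them. As comparison served 554 day 13 barcodes with Krt5 at 0.05% of UMIs or more and Krt13 plus Krtdap under 0.05% (the Krt5 barcodes; median 13653 UMIs), and as a gauge of free RNA 5514 day 13 barcodes led by Tyrobp, Fcer1g, Ctss and Cd68 (the myeloid barcodes). The latter held these 4 genes at 0.5% of UMIs or more and Krt5 under 0.05%. Squamous cells were not taken out of them, and 4 of the 70 reached that 0.5%. The highest Krt13 plus Krtdap share of a myeloid barcode was 2.88%, so the myeloid set overlaps with the squamous cells.

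A stratified squamous epithelium is built in layers. Basal cells anchored to the basement membrane express the transcription factor p63 and the keratins 5, 14 and 15 and divide. Their daughters switch to suprabasal keratins, such as keratins 4 and 13 in oral and oesophageal lining, strengthen their desmosomes, and at last crosslink small proline-rich and late cornified envelope proteins under the membrane into a tough shell. Normal lung lining is a simple or pseudostratified epithelium, and squamous tissue arises there as metaplasia or tumour.

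Krt13, the acidic keratin of non-cornifying stratified linings, made up 0.246%, 1.61% and 7.87% of UMIs in the lowest, the median and the highest of the 70 cells. Krtdap, a secreted protein of differentiating keratinocytes, made up 0.00903%, 0.508% and 2.58%. The 5 cells just inside the threshold had a summed share of 0.536%, 0.555%, 0.577%, 0.582% and 0.616%, and the 5 barcodes just outside had 0.474%, 0.468%, 0.463%, 0.404% and 0.397%. The share therefore ran on below the threshold without a wide gap, and 115 barcodes lay between 0.05% and 0.5%. Over whole libraries, Krt13 had 9, 40, 45079 and 18 UMIs at days 0, 8, 13 and 20, and Krtdap had 12311 at day 13 and 0 in the other 3. The highest summed share of any kept barcode was 0.109%, 0.0420%, 9.93% and 0.0700% at those days. Of the myeloid barcodes of day 13, 601 (10.9%) held at least 1 UMI of Krt13 or Krtdap, at 21.1 CPM (a gene's share of the summed UMIs, scaled to 1000000) for Krt13 and 5.57 CPM for Krtdap. Since the myeloid set overlaps with the squamous cells, these levels are not those of free RNA alone.

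**Figure D1:**
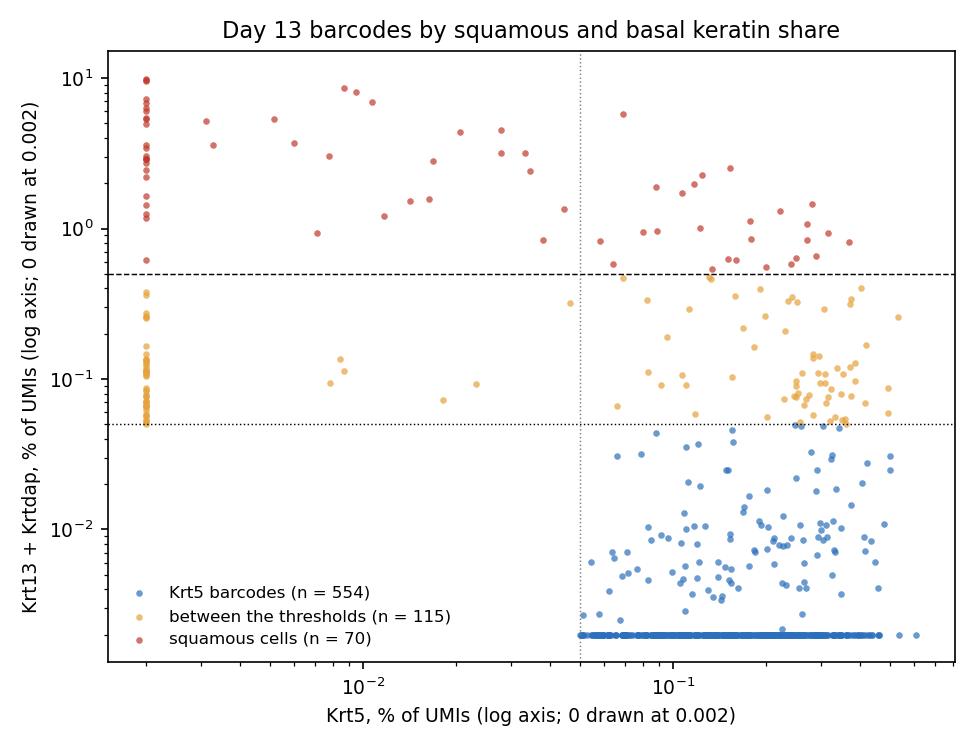
Krt13 plus Krtdap against Krt5 in day 13 barcodes, both as a percent of the barcode's UMIs on log axes, with 1 point per barcode. The 70 squamous cells lie above the dashed line at 0.5%, the 554 Krt5 barcodes lie below the dotted line at 0.05%, and 26 of the 70 squamous cells also hold Krt5 at 0.05% or more.

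The other markers given for these cells were present. Lgals7, which encodes the keratinocyte lectin galectin-7, was detected in 70 of 70 cells with 169, 3013 and 7127 CPM in the lowest, the median and the highest cell. Krt16, a keratin of activated and hyperproliferative squamous epithelium, was detected in 54 cells, and Cnfn, the envelope protein cornifelin, in 29. These markers were given together with the cells, so their presence is a description and no support for the squamous name. Cnfn marked fewer than all of the cells. Although the labels name alveolar epithelial cells, Nkx2-1, the lung lineage transcription factor, had 0 UMIs in all 70 cells (0 to 2.58 CPM). It was at 57.04 CPM in the Krt5 barcodes.

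Markers of other cell types were low but not absent. The 4 myeloid genes reached 0.1% of UMIs in 20 of the 70 cells and 0.5% in 4, the 10 mesenchymal genes reached 0.1% in 3, all 6 lymphoid genes were at 0, and so were 4 of 6 endothelial genes. The median cell held 0.110% of its UMIs in the 12 listed myeloid genes, against 0.0822% in the Krt5 barcodes and 2.97% in the myeloid barcodes. Among the 70, 6 ranked with the highest doublet scores of the library. Without the 20 cells with myeloid genes, 88.9% of the 36 with at least 2 reporter UMIs were tdTomato-dominant and 0% EGFP-dominant.

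The reporter went against the sort recorded in the labels. Of 47 squamous cells with at least 2 reporter UMIs, 43 (91.5%, interval 79.6% to 97.6%) had at least 80% of them from tdTomato. A further 4 were mixed and 0 were EGFP-dominant, for which the interval allows a share of up to 7.55%. EGFP reached 11 UMIs in all 70 cells together (7.68 CPM, 3.83 to 13.7), with at most 2 in any cell, below the 17.2 CPM of the myeloid barcodes. tdTomato reached 308 UMIs (215 CPM, 192 to 240.5) in 56 cells, above the 57.6 CPM of the myeloid barcodes. A cell of these mice without Cre recombination makes tdTomato itself, so that myeloid level need not be free RNA alone. The Krt5 barcodes were split: of 446 with at least 2 reporter UMIs, 210 were EGFP-dominant and 196 tdTomato-dominant. Of 42 such barcodes between the thresholds, 0 were EGFP-dominant and 34 tdTomato-dominant. Of 782 such myeloid barcodes, 33 (4.22%) were EGFP-dominant and 530 (67.8%) tdTomato-dominant, so the tdTomato class is not particular to the squamous cells. After thinning each cell to 2000 UMIs, which left out 6 squamous cells and 26 Krt5 barcodes, EGFP was found in 0 of 64 squamous cells against 41.5% of the Krt5 barcodes and 2.82% of the myeloid barcodes (unthinned 14.3%, 51.3% and 9.21%, at median depths of 16439, 13653 and 8124 UMIs). Thinned to 1000 UMIs, EGFP was found in 2 of 69 squamous cells (2.90%, interval 0.353% to 10.1%), 34.0% of the Krt5 barcodes and 1.37% of the myeloid barcodes. At 2000 UMIs the squamous interval was 0% to 5.60%. At both depths it covered the myeloid share, so this measure did not tell EGFP in the squamous cells from the background. At 2000 UMIs tdTomato was found in 31.3%, 23.1% and 9.93% (unthinned 80%, 55.6% and 33.9%). Where the tdTomato-positive squamous cells came from was not tested. Gramd2 itself had 4 UMIs in the 70 cells (2.79 CPM).

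**Figure D2:**
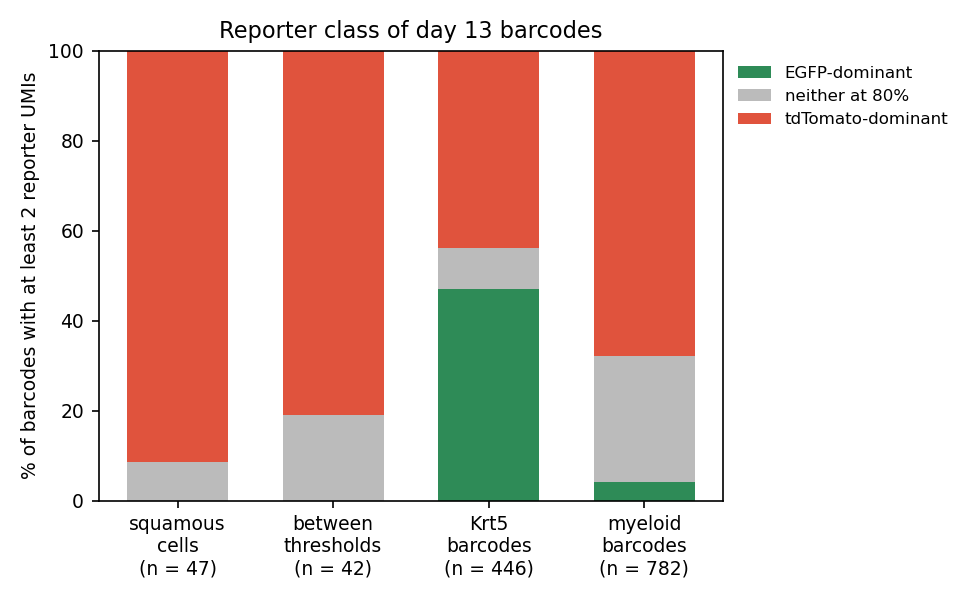
Reporter class of day 13 barcodes with at least 2 reporter UMIs, in percent of those barcodes. A class needs at least 80% of the reporter UMIs, and the bar of the 47 squamous cells holds 43 tdTomato-dominant and 0 EGFP-dominant cells, while 210 of 446 Krt5 barcodes are EGFP-dominant.

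Across genes, the summed UMIs of the 70 cells were set against those of the 554 Krt5 barcodes. A gene counted as past 2-fold where the ratio of CPM was at least 2, the larger side reached 20 CPM and the 95% interval of the ratio left out 1. Of 6094 genes tested, 482 (7.91%) were higher in the squamous cells and 1608 (26.4%) were lower, and the median log2 ratio of all genes was -0.47. Since the rule used this contrast, the counts of the gene lists below are read beside these shares as a description only. A gene that is low in the Krt5 barcodes was measured only where it reached 20 CPM in the squamous cells, so the counts over measured genes lean toward higher and support nothing by themselves. Reads of near-identical copies, as in the Lce3, Sprr2, Krt6, cystatin A and kallikrein families, may be split or lost between copies, so the level of a single copy is uncertain.

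Leaving out Krt5, which chose the comparison barcodes, 10 of 14 basal layer genes were lower, 1 was higher and 3 were neither, with a median log2 ratio of -2.19. Krt15, a keratin of resting basal cells, was at 38.4 CPM (28.9 to 49.99) against 3567 CPM, and had a UMI in 19 of 70 cells against 534 of 554. Krt5 was at 619 against 1685 CPM, a difference that the choice of the comparison barcodes by Krt5 favours, so it is no finding. Krt14, the partner of keratin 5, was the member on the other side, at 1350.4 against 349 CPM, with 0, 435 and 10197 CPM in the lowest, the median and the highest squamous cell. Keratin 14 was thus high in some of these cells and undetected in others. Trp63, which encodes p63, was at 60.7 against 134 CPM, and did not pass 2-fold against the 108 CPM of the tdTomato-dominant Krt5 barcodes alone. Col17a1, the hemidesmosome collagen, was at 7.68 against 86.5 CPM, and Itgb4, its integrin partner, at 27.2 against 104 CPM. Lamb3, a chain of the basement membrane laminin, was at 3.49 against 65.7 CPM. Krt17, a keratin of stressed and appendage epithelium, did not differ past the threshold, at 485 and 503 CPM.

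Of 22 suprabasal genes listed, 18 were measured outside the rule, of which 16 were higher and none was lower, with a median log2 ratio of 5.84. Krt4, the partner of keratin 13, was detected in all 70 cells, with 857, 7696 and 58910.2 CPM in the lowest, the median and the highest cell, and summed to 13949.9 CPM against 191 CPM. Every squamous cell therefore carried the keratin 4 and 13 pair, although Krt4 had no part in the rule. Krt6a, a wound and stress keratin, was at 2716 against 37.6 CPM, and its copy Krt6b at 640.3 against 0.563 CPM. Fabp5, the fatty acid carrier of keratinocytes, was at 32436 against 717 CPM, with 4649.6 CPM in the lowest cell. In the myeloid barcodes Fabp5 was at 4187 CPM. Dmkn and Sbsn, which lie beside Krtdap and encode secreted proteins of the suprabasal layers, were at 3991 against 7.43 and 1887 against 9.001 CPM. Krt10, the keratin of cornifying skin, was low, at 66.3 against 18.00 CPM. Ly6d and Mal were the suprabasal genes that did not pass 2-fold.

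**Figure D3:**
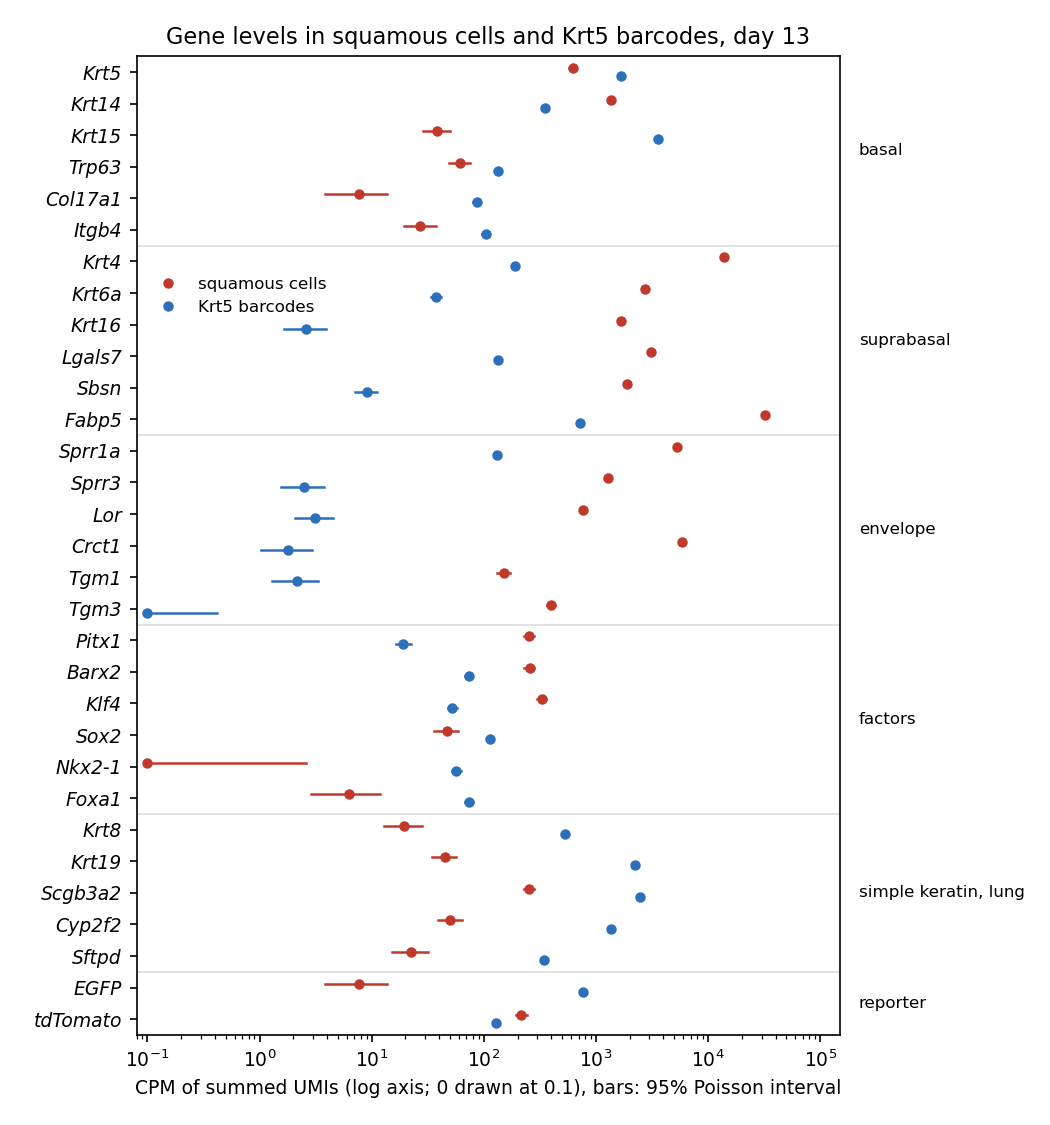
CPM of summed UMIs on a log axis in the 70 squamous cells (red) and the 554 Krt5 barcodes (blue) for genes named in the text, with 95% Poisson intervals that cover counting error only. Suprabasal and envelope genes lie to the right in the squamous cells, while Krt15, Krt8, Krt19, Nkx2-1, Foxa1 and EGFP lie to the left.

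Of 51 cornified envelope genes in the files, 23 were measured and all 23 were higher, with a median log2 ratio of 9.29, while 18 of the 51 had 0 UMIs in the squamous cells. Crct1, a cysteine-rich gene of the epidermal differentiation complex, was at 5792 against 1.80 CPM. Sprr1a and Sprr3, small proline-rich envelope precursors, were at 5274 against 131 and 1284 against 2.48 CPM. Lor, which encodes loricrin, the main envelope protein of skin, was at 765 against 3.15 CPM, with a UMI in 19 of 70 cells. The Lce3 genes, late envelope genes linked to barrier repair, were carried by few cells: Lce3f was at 2146 CPM in all and was detected in 15 cells, and Lce3a was at 1681 CPM and detected in 14. The envelope level of the 70 cells thus came from a subset of them.

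The Lce3 genes lie side by side on chromosome 3, so their starts are shown together. The 120 bases before each start come from RefSeq (GRCm38.p6, the assembly behind mm10), 5' to 3' in lower case, and capitals mark 3 runs of letters chosen after reading the 5 sequences and then searched in all promoters: TTGTGAAA, CACACCTG and GGATAAAAG.
Lce3a (chr3:92926231-92926350, minus strand): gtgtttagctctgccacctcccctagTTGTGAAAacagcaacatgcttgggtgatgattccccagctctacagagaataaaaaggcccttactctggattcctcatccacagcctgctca
Lce3b (chr3:92932859-92932978, plus strand): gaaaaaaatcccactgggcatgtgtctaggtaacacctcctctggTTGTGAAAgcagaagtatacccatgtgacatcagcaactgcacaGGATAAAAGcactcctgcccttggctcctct
Lce3c (chr3:92944366-92944485, plus strand): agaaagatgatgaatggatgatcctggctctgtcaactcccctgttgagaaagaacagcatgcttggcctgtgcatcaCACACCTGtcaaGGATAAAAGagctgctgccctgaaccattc
Lce3e (chr3:92966941-92967060, plus strand): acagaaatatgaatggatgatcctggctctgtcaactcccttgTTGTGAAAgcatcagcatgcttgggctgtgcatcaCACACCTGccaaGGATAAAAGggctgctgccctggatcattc
Lce3f (chr3:92992097-92992216, plus strand): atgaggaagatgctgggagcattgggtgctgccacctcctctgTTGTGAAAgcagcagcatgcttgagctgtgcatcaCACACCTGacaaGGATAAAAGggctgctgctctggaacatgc

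TTGTGAAA and GGATAAAAG each stood in 4 of the 5 windows and CACACCTG in 3, on either strand, against 0.460%, 0.131% and 0.697% of 32851 promoter windows of the same length. The runs were picked from these same 5 windows, so their high counts there were set by that choice. Aligned without gaps from the start, Lce3e and Lce3f were identical at 90 of 120 positions, Lce3c and Lce3f at 77, and Lce3c and Lce3e at 76. Shown the same way are Krtdap, from the rule, Lor, high in the last cells, and Cnfn, which served to order the cells; capitals here mark TGANTCA, the site of AP-1 transcription factors, and the TATA-like letters TATAAA or ATAAAA.
Krtdap (chr7:30787785-30787904, plus strand): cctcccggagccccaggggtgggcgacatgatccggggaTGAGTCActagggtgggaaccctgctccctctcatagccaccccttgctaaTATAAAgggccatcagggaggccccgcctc
Lor (chr3:92083143-92083262, minus strand): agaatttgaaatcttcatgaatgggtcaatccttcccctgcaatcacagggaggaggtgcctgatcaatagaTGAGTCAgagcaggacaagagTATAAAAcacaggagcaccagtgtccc
Cnfn (chr7:25369725-25369844, minus strand): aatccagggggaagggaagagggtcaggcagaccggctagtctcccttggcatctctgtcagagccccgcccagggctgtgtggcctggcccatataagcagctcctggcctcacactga

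Krtdap and Lor held both motifs and Cnfn neither. Such matches are descriptions of letters, not binding sites, and GGATAAAAG overlaps ATAAAA.

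Of 15 crosslinking and barrier genes measured (23 listed), 12 were higher and none was lower, with a median log2 ratio of 3.89. Beside genes of envelope crosslinking and lipids, the list holds tight junction genes and the sodium channel gene Scnn1a. The 3 that did not pass were Scnn1a, Cldn4 and Tjp1. Tgm1, the membrane-bound transglutaminase, was at 150.1 against 2.14 CPM. Tgm3, the late transglutaminase, was at 399 CPM in 43 cells and had 0 UMIs in the Krt5 barcodes, at least 1181-fold higher with the Krt5 side set to 3 UMIs. Alox12b, a lipoxygenase of the barrier lipids, was at 79.6 against 0.113 CPM, and Elovl4, which makes very long chain fatty acids, at 109 against 1.46 CPM. Both arms of envelope building, protein crosslinking and lipid supply, were therefore present in the summed UMIs.

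Of 10 desmosome genes measured (14 listed), 9 were higher and 1 was lower. The desmoglein in use differed: Dsg3, the squamous desmoglein, was at 272 against 9.11 CPM, while Dsg2, the desmoglein of simple epithelium, had 1 UMI in the squamous cells against 40.2 CPM. Pkp1, the plakophilin of stratified epithelium, was at 226 against 11.5 CPM, and Dsp, the plaque protein desmoplakin, at 515 against 109.6 CPM.

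Of 20 proteases and inhibitors measured (27 listed), 19 were higher and St14, the membrane protease matriptase, was lower. Klk14, a kallikrein of shedding cells, was at 1519 against 4.28 CPM, and Spink5, the inhibitor that restrains such kallikreins, at 476 against 2.48 CPM. Klk10 and Klk13, further kallikreins, were already present in the Krt5 barcodes, at 226 and 227 CPM, and were at 1234 and 627 CPM in the squamous cells. Slpi, a secreted inhibitor of neutrophil elastase, was at 1899.9 against 11.5 CPM.

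Of 15 alarmins and interleukin 1 family genes measured (20 in the files), 13 were higher, 1 lower and 1 neither. S100a9, a subunit of the antimicrobial calprotectin, was at 802 against 0.338 CPM, and its partner S100a8 at 116 against 0.563 CPM. Both were near 0 in the myeloid barcodes, at 0.412 and 3.59 CPM. Defb4, a beta-defensin, was at 233 CPM and detected in 8 cells only, with 0 UMIs in the Krt5 barcodes. Lcn2, the iron-scavenging airway protein lipocalin 2, was the gene on the other side, at 20.2 against 139 CPM.

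Many of these genes lie in the epidermal differentiation complex of chromosome 3. Between S100a1 and S100a10 (chr3:90511034-93564645, mm10; a window chosen after the values were seen), 24 of 29 genes measured were higher and none was lower. S100a1, S100a13, S100a6, S100a11 and S100a10, calcium-binding genes at the ends of the window, were the 5 that passed in neither direction.

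Among 25 epithelial transcription factors measured (34 listed), 10 were higher, 7 lower and 8 neither. Pitx1, a homeobox factor of the oral lining and hindlimb, was detected in 60 of 70 cells at 0, 247 and 718 CPM in the lowest, the median and the highest cell, and summed to 255 CPM (229 to 282) against 19.1 CPM (16.4 to 22.2). After thinning to 2000 UMIs it was found in 43.8% of squamous cells, 3.22% of Krt5 barcodes and 0.111% of myeloid barcodes (unthinned 85.7%, 18.2% and 0.363%). Pitx1 was therefore spread over the squamous cells and far above the level of the myeloid barcodes. Barx2 and Pax9, factors of the oral and foregut lining, were at 256 against 73.4 and 74.7 against 30.5 CPM. Klf4, Grhl1 and Ovol1, which drive keratinocyte differentiation, were at 329.6 against 52.5, 60.7 against 5.96 and 67.7 against 5.18 CPM. The lung and airway factors lay on the other side: Foxa1, a pioneer factor of lung epithelium, was at 6.28 against 73.8 CPM, and Gata6 had 1 UMI against 24.9 CPM. Sox2, the factor of airway and oesophageal basal cells, was at 46.8 against 114 CPM.

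Nkx2-1 bears on where the cells stand in the lung lineage. With 0 UMIs in 1432199, it was at least 27.2-fold lower with the squamous side set to 3 UMIs, and the myeloid barcodes were at 2.21 CPM. It was found in 285 of 554 Krt5 barcodes, at 46.6 CPM in the tdTomato-dominant and 76.4 CPM in the EGFP-dominant ones. The 115 barcodes between the thresholds had 4.71 CPM. Positional Hox genes were low. The 6 listed Hoxc genes had 60 UMIs (41.9 CPM) in the squamous cells against 9.11 CPM in the Krt5 barcodes, with 8.87 CPM in the tdTomato-dominant and 8.83 CPM in the EGFP-dominant ones. The 9 Hoxb genes had 22 UMIs (15.4 CPM) against 49.2 CPM, but the tdTomato-dominant Krt5 barcodes were at 18.3 CPM and the EGFP-dominant ones at 103 CPM. The 8 Hoxa genes were at 10.5 against 27.5 CPM. The barcodes between the thresholds had 47.1 CPM of Hoxc and 10.4 CPM of Hoxb.

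All 11 lung epithelium genes measured (16 listed) were lower, with a median log2 ratio of -2.90. Scgb3a2, an airway secretoglobin, was at 255 against 2491 CPM, and 289.8 CPM in the myeloid barcodes. Sftpc, the alveolar type II surfactant protein, was at 299 against 1527 CPM, and 925 CPM in the myeloid barcodes. Cyp2f2, a club cell enzyme, was at 50.3 against 1375 CPM, and 39.9 in the myeloid barcodes. Against the tdTomato-dominant Krt5 barcodes alone, 7 of 10 measured lung genes were lower, and Sftpc, Sftpa1 and Scgb1a1 did not pass: Sftpc was at 307 CPM there and at 2086 CPM in the EGFP-dominant ones, and Scgb1a1 at 108 CPM against 85.2 CPM in the squamous cells. For Scgb3a2 and Sftpc the summed squamous level was below that of the myeloid barcodes, so their expression in these cells could not be told from free RNA. The myeloid barcodes were shallower (median 8124 against 16439 UMIs), so equal CPM need not mean equal free RNA. In the order of cells given below, the first group held Scgb3a2 at 736 CPM. Of 5 simple keratins, 4 were lower: Krt8 was at 19.6 against 528 CPM and Krt19 at 44.7 against 2224 CPM. Krt8 and Krt18 filament the simple epithelium, and Krt8 in the squamous cells was close to its 14.98 CPM in the myeloid barcodes. Epcam, the adhesion protein of the bead enrichment, was at 231 against 584 CPM.

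Among the genes with the largest ratios below the Krt5 barcodes were airway and transitional genes. Reg3g, an antibacterial lectin of mucosa, was at 33.5 against 2908 CPM, Cbr2, a carbonyl reductase abundant in airway cells, at 112 against 6791 CPM, and Aqp4, a water channel, at 6.98 against 347 CPM. Upk1b, a tetraspanin of urothelium and airway, had 2 UMIs in the squamous cells against 143 CPM, and Ifitm1, an interferon-induced membrane protein, was at 3.49 against 635 CPM.

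Signalling and metabolic lists were mixed. In the Notch pathway, which commits keratinocytes to leave the basal layer, 2 of 5 measured genes (10 listed) were higher and 3 lower: the target Nrarp was at 122 against 10.4 CPM and the receptor Notch3 at 31.4 against 3.38, while the target Hes1 was at 34.2 against 143 and the ligand Jag2 at 6.98 against 97.2 CPM. In the retinoid pathway, which opposes squamous fate in airways, 6 of 9 measured genes (16 listed) were lower: Aldh1a1, which makes retinoic acid, was at 3.49 against 64.02 CPM and the retinoid-induced Tgm2 at 5.59 against 133 CPM. Crabp2, which carries retinoic acid, was the gene above, at 93.6 against 0.113 CPM. In the EGF family 4 of 7 measured genes (9 listed) were higher, all of them ligands: Areg was at 321 against 47.5 CPM and Hbegf at 355 against 91.02 CPM. The receptors Egfr, Erbb2 and Erbb3 did not pass in either direction. Of 10 targets of the oxidative stress factor NRF2, 5 were higher and 4 lower: Nqo1, a quinone reductase, was at 128 against 12.7 CPM, and Gclm, which sets glutathione synthesis, at 151 against 413 CPM. Mt4, the metallothionein of stratified epithelium, was at 1731 against 0.563 CPM. Of 12 cycling genes 4 were lower and none higher, and Mki67, the proliferation marker Ki-67, was at 55.2 against 150.2 CPM.

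Since the squamous cells were tdTomato-dominant and the Krt5 barcodes were mixed, the contrast was repeated within each reporter class of Krt5 barcodes, a choice made after the values were seen. Against the 196 tdTomato-dominant barcodes, 490 of 5920 genes (8.28%) were higher and 1418 (24%) lower, and 460 and 1329 of these also passed against all Krt5 barcodes. Against the 210 EGFP-dominant barcodes, 486 of 6227 (7.8%) were higher and 1843 (29.6%) lower, with 446 and 1482 shared. The tdTomato-dominant Krt5 barcodes held more of some squamous and basal genes than the EGFP-dominant ones: Krt14 was at 523 against 40.2 CPM, Lgals7 at 172 against 4.87, Areg at 76.2 against 5.48 and Sprr1a at 221 against 35.3 CPM. The reverse held for Krt4, at 97.6 against 329 CPM. These differences are within 1 library and were not tested over animals or cultures.

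The 115 barcodes between the thresholds lay between both sets for some genes and apart for others. Krt14 was at 3502 CPM there, above the squamous cells and the Krt5 barcodes, and so was Krt17 at 2153 CPM. Lgals7 was at 2483 CPM and Pitx1 at 168 CPM, near the squamous level, whereas Krt15 was at 2892 CPM, near that of the Krt5 barcodes. Cnfn was at 4.71 CPM and Crct1 at 68.7 CPM, far below the squamous cells. These barcodes were shallower (median 7268 UMIs), 54 of them held myeloid genes at 0.1% of UMIs or more, and 66 held Krt5 at 0.05% or more.

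Within the squamous cells, an order from basal to cornified was set by the ratio of cornified (Cnfn and Lce3a to Lce3f) to basal (Krt5, Krt14 and Krt15) CPM after thinning to 2000 UMIs. The 64 cells deep enough were divided into 4 groups of 16. For the score 100 CPM was added to each side, and it moves in steps of single UMIs of the thinned cells. The groups are ranges of a score, not cell types: 10 cells lay within 0.5 log2 units of the cut between groups 1 and 2, 7 near the second cut and 0 near the third. Several cells of group 3 scored exactly 0, and group 4 began at 1.15. The empty stretch at the third cut can be such a step and is not read as a break between kinds of cell. Median depth was 15872.5, 14677.5, 25741.5 and 20757.5 UMIs over the groups. The 10 genes of the score and the 2 of the rule are no finding here, and all other genes are given as CPM of summed unthinned UMIs. Between the last and the first group, 534 of 5277 genes (10.1%) were higher, 1237 (23.4%) were lower, and the median log2 ratio was -0.53. A gene near 0 in one end group was measured only where it reached 20 CPM in the other, so counts over measured genes lean toward the group where a list is high and support nothing by themselves.

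Basal and cycling genes were highest in the first groups. All 7 basal layer genes measured outside the score were lower in the last group, with a median log2 ratio of -2.29: Krt17 was at 1133, 950.5, 129.6 and 125 CPM from the first to the last group, Itgb4 at 67.9, 35.7, 17.1 and 6.57 CPM, and Trp63 at 96.5, 64.3, 73.4 and 26.3 CPM. Of 12 cycling genes, 11 were lower in the last group: Tyms, which makes thymidylate for DNA synthesis, was at 122, 96.5, 39.1 and 6.57 CPM, and Mki67 at 85.8, 96.5, 56.3 and 10.96 CPM. Mki67 came from few cells and was found in 6, 3, 4 and 1 of the 16 cells of each group, with a median of 0 in every group. Metallothionein Mt1 was at 7849.6, 6682, 5674 and 2020.2 CPM.

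A set of suprabasal genes did not pass 2-fold between the ends of the order. Krt6a was at 2084, 2373, 3152 and 2921 CPM, Lgals7 at 3936, 2987, 3446 and 2274 CPM and the desmosome gene Dsp at 454, 364, 624 and 550.0 CPM. Pitx1 did not pass 2-fold either, at 289.5, 250.1, 286 and 210.3 CPM, and was detected in 16, 14, 16 and 13 of the 16 cells of each group. These 4 genes were present in each group of the order. The reporter tdTomato was at 254, 157, 215 and 228 CPM. Krt16 and Mt4 were highest in the third group, Krt16 at 743, 1472, 2712 and 1455 CPM and Mt4 at 786, 689.6, 3519 and 1361 CPM, so neither passed between the ends.

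Other genes were higher at each step or nearly so. Krt4 was at 3128, 5085, 12788 and 27057 CPM, Sbsn at 379, 447, 1369.6 and 4139 CPM and Calml3, a calmodulin-like gene of stratified epithelium, at 64.3, 129, 418 and 1523 CPM. Klk13 was at 67.9, 82.2, 445 and 1464 CPM, Sprr1b at 150.1, 318, 915 and 1376 CPM and the differentiation factor Grhl1 at 10.7, 21.4, 61.1 and 116 CPM. Of 18 suprabasal genes measured outside the rule, 11 were higher in the last group and none was lower.

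A further set was nearly absent until the last group. Lor was at 7.15, 3.57, 7.34 and 2362 CPM, Sprr3 at 3.57, 10.7, 58.7 and 3948 CPM and Klk14 at 0, 7.15, 44.02 and 4704 CPM. These 3 genes had few or no UMIs in the first 2 groups. Hopx, a homeodomain-only cofactor of differentiating keratinocytes and also of alveolar type I cells, was at 3.57, 0, 19.6 and 2583 CPM. Slpi was at 25.02, 60.7, 103 and 5780.0 CPM, the arginine-cleaving enzyme Arg1 at 0, 0, 61.1 and 1635 CPM, and Psca, a surface antigen of bladder and stomach lining, at 7.15, 3.57, 9.78 and 2106 CPM. Asprv1, the protease that processes filaggrin, was at 3.57, 3.57, 0 and 1481 CPM. The 16 cells of the last group were not alike in them: Lor had a UMI in 11 of 16, with 0, 719 and 21799 CPM in the lowest, the median and the highest cell, and Psca in 9, with a median of 25.8 and a highest value of 8447 CPM. Slpi had a median of 771 and a highest value of 40457 CPM. Arg1 was in all 16.

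Of the lists, 18 of 19 cornified envelope genes outside the score were higher in the last group, all 18 crosslinking and barrier genes, 18 of 22 proteases and inhibitors, and 13 of 15 alarmins, with median log2 ratios of 4.38, 2.88, 2.91 and 3.29. Many were measured through the last group alone. By a split made after the values were seen, 10 of the envelope genes reached 20 CPM in the first group, of which 9 were higher in the last. The same held for 6 of 6 crosslinking and barrier genes, 10 of 13 proteases and inhibitors, and 4 of 6 alarmins. Il36a, a skin interleukin, and Defb4 had no UMI in the first group and were at 123 and 727 CPM in the last. Desmosome genes moved less, with 3 of 9 higher and Dsc3, the desmocollin of lower layers, lower, at 168, 125, 164 and 48.2 CPM. Of 25 genes measured in the chromosome 3 window outside the score, 20 were higher in the last group and none was lower, and of the 14 that reached 20 CPM in the first group 9 were higher. NRF2 targets went mostly the other way, with 6 of 10 lower and 2 higher.

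**Figure D4:**
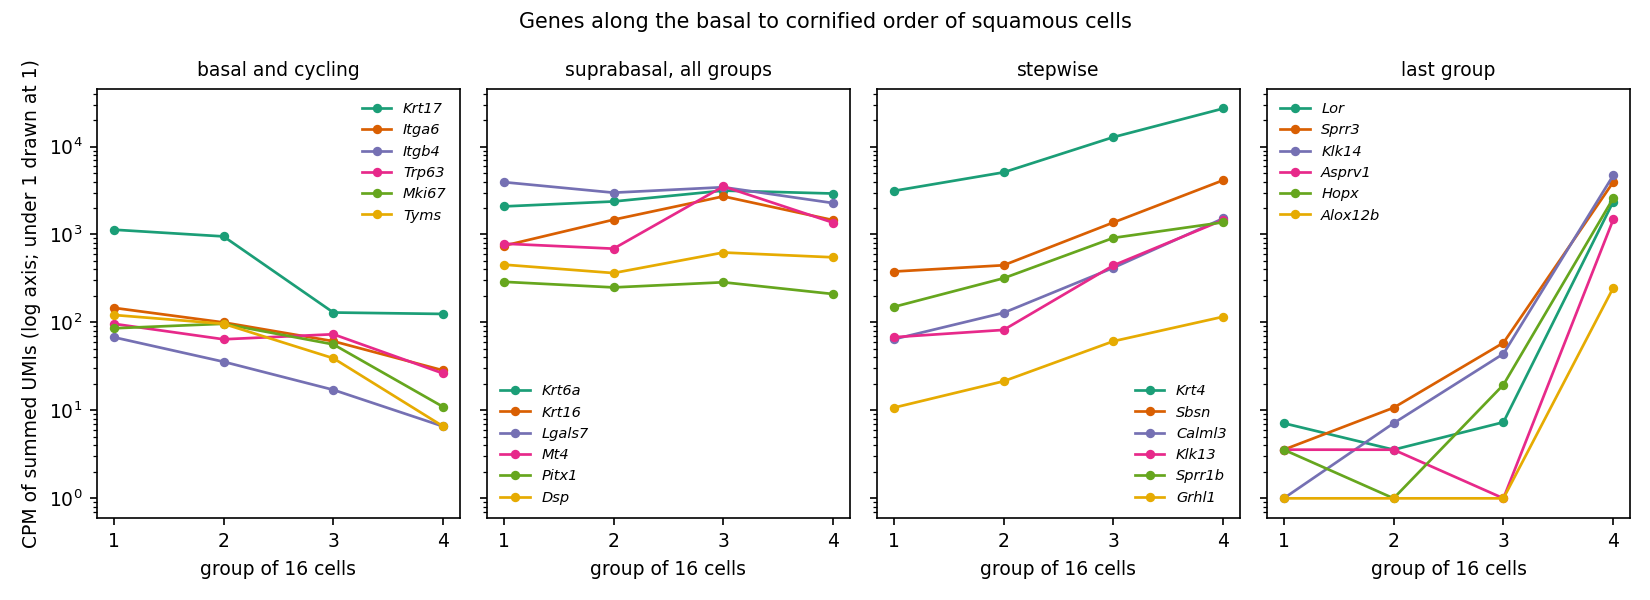
CPM of summed UMIs on a log axis over the 4 groups of 16 squamous cells, from basal (1) to cornified (4), for genes named in the text. Krt17 and the cycling genes are lower in group 4 than in group 1, Krt6a, Lgals7 and Pitx1 stay within a narrow range, Krt4 and Sbsn are higher toward the right, and Lor, Sprr3, Klk14 and Hopx are high in group 4.

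The starts of the late genes were read for motifs. Of 5277 genes, 116 (2.2%) were at least 8-fold higher in the last group, and 81 of them had 94 promoter entries in the RefSeq table. In the 120 bases before the start, TGANTCA was present on either strand in 15 of the 94 (15.96%). Among windows of genes lower in the last group, taken at 2-fold and not at 8-fold, it was in 31 of 1233 (2.51%). Of all 32851 windows, 3.41% held it. TATAAA or ATAAAA was present in 27 of the 94 (28.7%), against 5.11% and 11.8%. Windows of 1 gene family share letters, so these are counts of windows and not of independent genes, and the motifs were chosen after the values were seen.

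Markers of other cells moved with the order in 2 lists. Of 8 lung epithelium genes measured, Scgb3a2, Scgb3a1, Sftpb and Sftpd were lower in the last group and none was higher, with a median log2 ratio of -1.43. Scgb3a2 was at 736, 157, 152 and 85.5 CPM, and the 16 cells of the first group had a median of 134 and a highest value of 5827 CPM. Only the first group lay above the 289.8 CPM of the myeloid barcodes. All 9 mesenchymal genes measured were higher in the last group, 8 of them measured through that group alone, with a median log2 ratio of 2.84: Col3a1, a fibrillar collagen, was at 3.57, 7.15, 9.78 and 239 CPM, and was found in 7 of the 16 last cells with a highest value of 4908 CPM. The mesenchymal list made up 0.00858% of UMIs in the median and 1.41% in the highest cell of the last group, so few cells carried it. Without the 3 cells in which it reached 0.1%, the log2 ratio of last to first group was 0.49 for Col3a1 and 0.59 for Vim, against 4.48 and 4.04 with them, while Lor was at 7.86 against 7.78. Of the 9 myeloid genes measured, none passed in either direction.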

How the data were processed

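The authors deposited filtered count matrices, whole UMI counts per gene and cell barcode, made with Cell Ranger 7.0.1 and mm10 per the submitters' processing notes and the file headers; no normalization had been applied. Each library lists 22547 features here. Samples were grouped by the day in the labels, and nothing in the labels gives replicates. UMIs were summed per set of barcodes and given as CPM with exact Poisson intervals, ratios with exact conditional Poisson intervals, shares with Clopper-Pearson intervals (95%, counting error only). A side under 3 UMIs was set to 3 for a ratio. Free RNA was not subtracted. Doublet scores came from Scrublet in Scanpy 1.11.5, whose automatic threshold called 0 barcodes at day 13, so no barcode was removed and the 853 highest scores were left out as an alternative. The code was tested on simulated data (numpy 2.4.6, scipy 1.17.1, pandas 2.3.3). Genes named are the 15 largest ratios each way, the 10 largest within the order, up to 6 per list, the given markers and the reporter; some further list members (such as Grhl1, Pax9, Sbsn, Lamb3, Dsc3 and Il36a) and the chromosome 3 window were chosen after their values were seen. The members and lists were chosen with earlier results of these data known. Mitochondrial, ribosomal and predicted genes are not named.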

Additional observations from a re-analysis of the deposited data

How the results depend on the processing

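The number of squamous cells was 52 with a threshold of 1% of UMIs, 93 with 0.25%, 86 without the cell filter, 68 at 10% mitochondrial UMIs at most and 64 without the highest doublet scores, and it was 0 on days 0, 8 and 20 in each of these. Without a minimum CPM, 769 genes were higher and 3082 lower than in the Krt5 barcodes, since more low genes then count. Scaling by the median ratio of 1925 genes (0.877, a log2 shift of -0.19) gave 563 higher and 1269 lower. With the order set by basal genes alone, 822 genes were lower in the last group, and the cause was not tested. With the mean of the cells' CPM, 979 were higher, but by a looser criterion. There the interval of the ratio did not have to leave out 1, and 1 CPM added to each side replaced the floor of 3 UMIs. How much of the rise came from the averaging was not tested. tdTomato was found in 17.4% of squamous cells thinned to 1000 UMIs in place of 2000, fewer UMIs being kept. Among 149 named genes under 9 alternatives and 107 under 7, the sign changed for Ctss (log2 -0.20 without barcodes with myeloid genes), Bpifa1 (0.017 against EGFP-dominant Krt5 barcodes), Krt19 (-0.20 with basal genes alone) and Krt23 (-0.69 with cornified genes alone); the cause was not tested. With 1 library, depth and the 70 cells limit single genes: a gene at 0 UMIs could have been at up to 2.58 CPM. No paired analysis was possible because each day has 1 library and the labels give no replicate numbers.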
